A study of Homo sapiens with 6 samples.

Results

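The 10 genes described here are those of major histocompatibility complex (MHC) class II presentation of a set list: HLA-DRA, HLA-DRB1, HLA-DPA1, HLA-DPB1, HLA-DMA, HLA-DMB, HLA-DOA, HLA-DOB, the invariant chain CD74 and the transactivator CIITA. They were found by gene symbol, and all 10 were among the 17918 genes of the table. RNA was sequenced from KMS11, an established cell line from multiple myeloma, the malignancy of plasma cells. The knockdown group, shCRIP1, holds 3 libraries of cells transfected with an shRNA against CRIP1 (genotype given as CRIP1 knockdown). Its control, shScramble, holds 3 libraries of cells given a scrambled shRNA (genotype given as WT), and neither group was treated further. All 6 libraries come from 1 cell line, and the labels do not say how many hairpins or clones were used. The design text calls the replicates biological but does not say that they were separate cultures or transfections, so p-values measure only how much these libraries vary, which may in part be technical variation.

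MHC class II molecules are pairs of an alpha and a beta chain that show peptides from the endosomal pathway to CD4+ T cells. The invariant chain fills their groove until it is cut down in endosomes, HLA-DM then exchanges its last fragment for peptides, and HLA-DO restrains HLA-DM. Transcription of these genes depends on CIITA, which does not bind DNA itself but docks on a complex of RFX, CREB and NF-Y factors at a conserved promoter module, with an X box followed by a Y box. CIITA is normally shut off as B cells become plasma cells, although some myeloma lines keep it.

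The promoters of the members are shown because this module is what the genes share. Of the 10 members, 8 had an entry in the RefSeq promoter table (GRCh38.p14), HLA-DPA1 with a pair of start sites, giving 9 entries, while HLA-DRA and CIITA had none. The 250 bases before each start were searched on both strands for an X-type motif, CNAGNNNCNGA, and for the Y box core ATTGG, whose other strand reads CCAAT. The X-type letters were chosen after these promoters had been read, so the matches in the members are a description. In the stretches below, written 5′ to 3′ on the strand of each gene, capitals mark the X-type match and the ATTGG core. These are reference sequences, not the alleles of KMS11.
HLA-DMA (chr6:32953153-32953222, minus strand): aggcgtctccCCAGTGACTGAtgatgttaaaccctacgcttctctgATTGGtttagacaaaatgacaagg
HLA-DMB (chr6:32941059-32941128, minus strand): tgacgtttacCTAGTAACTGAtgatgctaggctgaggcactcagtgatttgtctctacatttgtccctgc
HLA-DOA (chr6:33009635-33009704, minus strand): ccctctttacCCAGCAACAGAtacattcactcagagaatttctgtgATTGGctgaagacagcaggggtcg
HLA-DOB (chr6:32817075-32817144, minus strand): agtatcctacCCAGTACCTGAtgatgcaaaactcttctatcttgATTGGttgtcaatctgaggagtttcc
HLA-DRB1 (chr6:32589870-32589939, minus strand): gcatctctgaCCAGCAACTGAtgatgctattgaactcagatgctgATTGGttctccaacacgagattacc
HLA-DPA1 (chr6:33073691-33073760, minus strand): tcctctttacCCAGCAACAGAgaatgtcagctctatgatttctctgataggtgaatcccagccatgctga

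The X-type motif lay on the gene's strand in 6 of the 9 entries and the Y box core, on either strand, in 7. No entry of a member had the X-type motif on the other strand alone. Across all 35116 promoter entries the share, counting either strand, was 13.8% for the X-type motif and 32% for the Y box core. Both together, with the core starting 10 to 30 bases after the X-type match, were found in 94 entries (0.268%), of which 8 belonged to class II genes, among them the members HLA-DRB1, HLA-DMA, HLA-DOA and HLA-DOB. In those 4 members the gap was 24, 25, 25 and 23 bases. HLA-DMB had the X-type match at position -90 from its start, and its only Y box core, read as CCAAT, at position -22, outside the stretch shown. HLA-DPB1 and CD74 had the Y box core without the X-type letters, and the other HLA-DPA1 start site had neither. A missing match says only that these letters are not in the 250 bases searched.

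Depth was even, with library totals of 16971454 to 18005318 estimated counts, and libraries of a group correlated across genes at 0.995 to 0.996 (Pearson's r of log2 counts, scaled for depth), against 0.921 to 0.923 between groups. CRIP1 itself had 127, 129 and 134 TPM (transcript abundance scaled for gene length and depth) in shCRIP1 and 2791, 3327 and 3174 TPM in shScramble, so that the knockdown mean was 4.2% of the scramble mean. Of 12612 genes tested with edgeR's quasi-likelihood test, 77.6% passed an adjusted p of 0.05, 38.1% as lower and 39.4% as higher in shCRIP1. Plasma cell markers, the labelled identity, were present in both groups, with 3792 to 4048 TPM summed over 9 genes in shCRIP1 and 8371 to 8811 TPM in shScramble. SDC1, the plasma cell surface marker CD138, was at 29.1 ± 1.4 TPM in shCRIP1 and 39.8 ± 1.35 TPM in shScramble, and SLAMF7 had 9 and 2 counts in all. Of 8 plasma cell genes tested, 3 rose and 5 fell. Those that rose were CD38 (log2 fold change 0.51, SE 0.06), IRF4 (0.39, SE 0.03) and TNFRSF17 (0.30, SE 0.04). JCHAIN, the joining chain of secreted antibodies, fell (1789 ± 158 TPM in shCRIP1, 6443 ± 223 TPM in shScramble). So did the secretory factor XBP1 (560 ± 9.13 and 773 ± 9.82 TPM) and the chaperone MZB1 (164 ± 8.74 and 347 ± 4.76 TPM). Erythroid markers, 14 genes in all, summed to 700 to 703 TPM in shCRIP1 and to 3.86 to 5.66 TPM in shScramble, and 10 of 11 tested rose. The fetal and embryonic globins HBG2, HBG1 and HBE1 were at 185 ± 5.22, 164 ± 11.7 and 152 ± 3.86 TPM in shCRIP1, and RHAG, a red cell membrane protein, at 29.7 ± 3.38 TPM, all 4 listed at 0 TPM in shScramble.

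Most of the class II genes were lower after CRIP1 knockdown. All 10 members passed the filter on low counts. Beside 38.1% lower and 39.4% higher over all genes tested, 8 members fell, HLA-DMB rose and HLA-DOB did not pass the test. Their median log2 fold change was -0.76, beside 0.01 over all genes tested. The TPM values of the groups did not overlap in 9 members, with shCRIP1 below shScramble in 8, where 30.3% of all genes tested had shCRIP1 below and 48.2% had it above. The summed level of the members was 10526, 11029 and 10997 TPM in shCRIP1 replicates 1 to 3 and 13344, 13279 and 13576 TPM in shScramble replicates 1 to 3, that is 81% of the scramble mean. In bulk RNA, fewer cells of a type and less RNA per cell cannot be told apart. The erythroid markers above differed between the same libraries, and their part in the class II result was not tested.

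**Figure D1:**
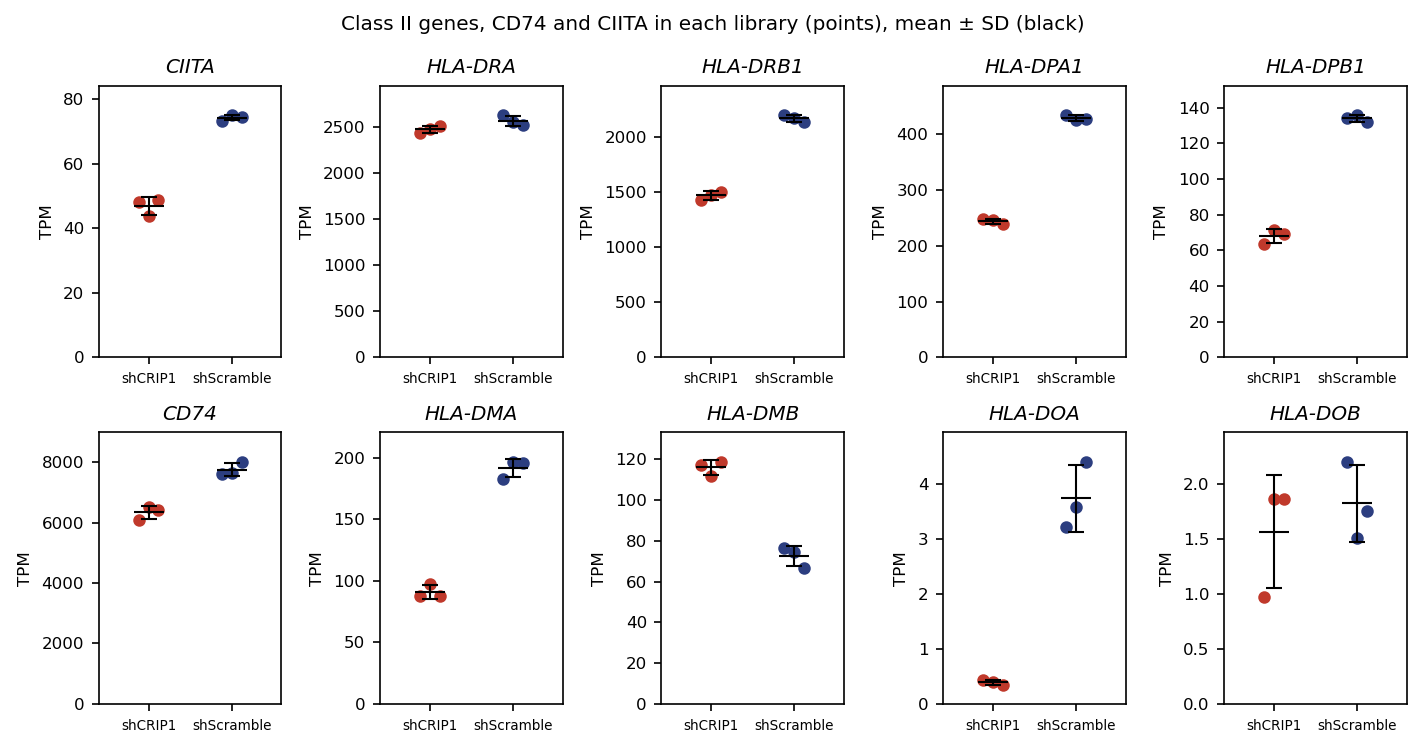
TPM of each member in the 3 shCRIP1 libraries (red, left) and the 3 shScramble libraries (blue, right), with the group mean and SD in black. Each panel has its own axis from 0. HLA-DMB is higher in shCRIP1, the values of HLA-DOB overlap, and in the other 8 genes all shCRIP1 libraries lie below all shScramble libraries.

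CIITA, the master regulator of the pathway (NCBI gene 4261, chromosome 16, 10866222 to 10943021, plus strand, GRCh38 as annotated by GENCODE 29), fell to 63.1% of its scramble level. It had 48.2, 43.8 and 48.7 TPM in shCRIP1 replicates 1 to 3, against 73.4, 75.1 and 74.5 TPM in shScramble replicates 1 to 3. All shScramble libraries lay close together and well above every shCRIP1 library. The mean was 46.9 ± 2.69 TPM in shCRIP1 and 74.3 ± 0.861 TPM in shScramble (SD, n = 3 each), a 1.78-fold decrease (log2 fold change -0.83, SE 0.04, adjusted p = 4.49e-14, edgeR). Of the genes tested, 11.1% had a lower log2 fold change. The annotated CIITA locus overlaps DEXI on the opposite strand over 13570 bases. None of the 6 CIITA counts was whole, a sign that reads were shared between genes, but which other genes was not determined. DEXI was at 21.7 ± 1.97 TPM in shCRIP1 and 24.1 ± 1.92 TPM in shScramble (log2 fold change -0.29, SE 0.09, adjusted p = 0.00524). On log2(TPM + 1) DEXI did not pass (-0.15, adjusted p = 0.107, limma), while CIITA did (-0.65).

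The genes whose profile over the 6 libraries was most like that of CIITA, by Euclidean distance of centred, depth-scaled log2 counts among 8033 candidates, were DYRK2 (distance 0.0425), TPST1 (0.0547) and DELE1 (0.069). DYRK2, a protein kinase, was at 23.5 ± 1.2 TPM in shCRIP1 and 38.0 ± 0.747 TPM in shScramble. TPST1, a protein tyrosine sulfotransferase, was at 24.7 ± 1.81 and 38.8 ± 1.56 TPM, and DELE1, a mitochondrial stress sensor, at 19.8 ± 1.55 and 32.1 ± 0.705 TPM. Since the 6 libraries form only 2 groups, a near profile here means a like fold change.

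The antigen-presenting chains differed in how far they fell. HLA-DRA, the invariant alpha chain of HLA-DR and the most abundant class II chain here (chromosome 6, 32439842 to 32445046, plus strand), had 2439, 2483 and 2520 TPM in shCRIP1 and 2635, 2558 and 2529 TPM in shScramble. The highest shCRIP1 library thus lay just below the lowest shScramble library. The fitted decrease was 1.14-fold (log2 fold change -0.19, SE 0.03, adjusted p = 2.12e-05), but on log2(TPM + 1) it was -0.05 and did not pass (adjusted p = 0.181, limma). The median over all genes tested was 0.12 on that scale, against 0.01 in the edgeR fit. PDE3B (distance 0.0175), GPT2 (0.0186) and TERF2IP (0.0286) had the profiles most like it, and none of the 3 passed on log2(TPM + 1) either (each -0.05).

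HLA-DRB1, the main beta chain of HLA-DR (chromosome 6, 32578769 to 32589848, minus strand), had 1429, 1471 and 1503 TPM in shCRIP1 and 2196, 2172 and 2129 TPM in shScramble. The groups were far apart, with 1468 ± 37.3 TPM in shCRIP1 against 2166 ± 33.9 TPM in shScramble, a 1.62-fold decrease (log2 fold change -0.70, SE 0.03, adjusted p = 1.11e-13). HLA-DRB1 shares reads with its near-identical copies, and none of its counts was whole. The levels assigned to the copies were lower as well. HLA-DRB3 was at 41.3 ± 2.67 TPM in shCRIP1 and 124 ± 3.79 TPM in shScramble (log2 fold change -1.72, SE 0.06). HLA-DRB4 was at 71.4 ± 2.49 and 127 ± 7.56 TPM (-0.97, SE 0.06). HLA-DRB5 was at 26.3 ± 1.73 TPM in shCRIP1 and 32.3 ± 2.07 TPM in shScramble (-0.43, SE 0.08). The split between the 4 DRB genes is therefore uncertain, but their sum does not depend on it. Which of the copies KMS11 carries was not determined. Summed, the DRB genes had 14374, 15451 and 14945 estimated counts in shCRIP1 and 23029, 23172 and 22001 in shScramble, and fell by 0.74 on the log2 scale when fitted as 1 gene. HLA-DRB1 held 91.3% of these counts in shCRIP1 and 88.6% in shScramble.

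The HLA-DP chains fell further. HLA-DPA1, the alpha chain (chromosome 6, 33064569 to 33080775, minus strand), had 247, 246 and 239 TPM in shCRIP1 and 434, 425 and 427 TPM in shScramble. That is a 1.93-fold decrease (log2 fold change -0.95, SE 0.03, adjusted p = 1.5e-15), with 244 ± 4.35 TPM in shCRIP1 and 429 ± 4.65 TPM in shScramble. HLA-DPB1, the beta chain (chromosome 6, 33075926 to 33087201, plus strand), had 63.5, 71.5 and 69.0 TPM in shCRIP1 and 134, 136 and 132 TPM in shScramble. Its level in shCRIP1 was thus 50.7% of that in shScramble (log2 fold change -1.11, SE 0.04, adjusted p = 2.66e-15). The loci overlap over 4850 bases on opposite strands. No strand setting is given, so reads in that overlap cannot be told apart, although all counts of both genes were whole.

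HLA-DQ, the remaining classical pair, is outside the 10 genes and is given for its position in the pathway. HLA-DQB1 fell to 257 ± 10.4 TPM in shCRIP1 against 312 ± 7.95 TPM in shScramble (log2 fold change -0.42, SE 0.04). HLA-DQA1, which was singled out once its values were known, stood at 720 ± 6.42 TPM in shCRIP1 and 685 ± 23.5 TPM in shScramble. Its fitted log2 fold change of -0.07 (SE 0.03, adjusted p = 0.0809) had the opposite sign on log2(TPM + 1), at 0.07, and passed as a decrease with a trend in GC content removed (-0.25). Of the 5 other class II chains tested, 4 fell and 0 rose, beside 38.1% and 39.4% of all genes tested. Their median was -0.43, or -0.51 with 5 lower once the GC trend was removed. Of the 4 that fell, 3 are DRB genes whose reads are shared with HLA-DRB1, and with the DRB counts summed into 1 gene the number lower was 1, HLA-DQB1.

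**Figure D2:**
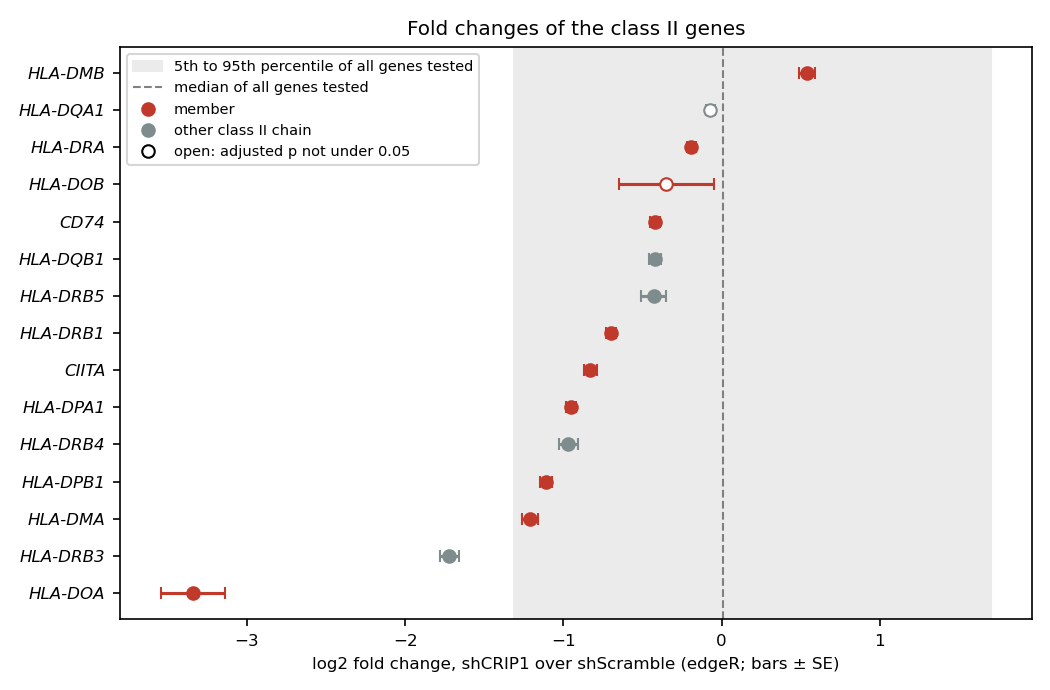
Log2 fold change of shCRIP1 over shScramble, with SE, for the members (red) and the other class II chains tested (grey). Open circles did not pass an adjusted p of 0.05. The shaded band spans the 5th to 95th percentile of all genes tested, -1.31 to 1.7, and HLA-DOA and HLA-DRB3 lie below it.

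CD74, the invariant chain, was the most abundant member in every library. CD74 (chromosome 5, 150401637 to 150412929, minus strand) had 6092, 6503 and 6408 TPM in shCRIP1 and 7606, 7636 and 8016 TPM in shScramble. It ranked 4 among all genes by mean TPM in shCRIP1 and 5 in shScramble, and it held 58.4% of the members' summed TPM in shCRIP1 and 57.8% in shScramble. The 1.34-fold decrease (log2 fold change -0.42, SE 0.03, adjusted p = 8.74e-10) was smaller than that of CIITA, and 23.8% of genes tested had a lower value.

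The chains of HLA-DM, the peptide exchange factor, moved in opposite directions. HLA-DMA, its alpha chain (chromosome 6, 32948613 to 32969094, minus strand), had 87.7, 97.8 and 87.5 TPM in shCRIP1 and 183, 197 and 196 TPM in shScramble. HLA-DMB, its beta chain (chromosome 6, 32934629 to 32941070, minus strand), had 117, 112 and 119 TPM in shCRIP1 and 76.2, 74.2 and 66.8 TPM in shScramble. HLA-DMA was the more abundant of the pair in every shScramble library and the less abundant in every shCRIP1 library. HLA-DMA fell 2.32-fold (log2 fold change -1.21, SE 0.05, adjusted p = 3.87e-14) and HLA-DMB rose 1.46-fold (0.54, SE 0.05, adjusted p = 9.6e-09). HLA-DMB rose and HLA-DMA fell under each scaling tried, including that with the GC trend removed (0.48 and -1.24). The 5′ end of the GENCODE span of HLA-DMA overlaps BRD2 on the opposite strand over 435 bases (32968660 to 32969094). The RefSeq promoter entry shown above, at 32953048 to 32953347, belongs to another start that lies inside this span, outside the overlap. All 6 HLA-DMA counts were whole. BRD2 was at 143 ± 5.14 TPM in shCRIP1 and 125 ± 2.48 TPM in shScramble (log2 fold change 0.08, SE 0.04, adjusted p = 0.0654).

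The chains of HLA-DO, which restrains HLA-DM, were the least abundant members in all 6 libraries. HLA-DOA, the alpha chain (chromosome 6, 33004178 to 33009612, minus strand), had 0.44, 0.4 and 0.35 TPM in shCRIP1 and 3.21, 3.58 and 4.4 TPM in shScramble, from 14, 13 and 11 counts against 102, 115 and 138. This was a 10.2-fold decrease, the largest among the members (log2 fold change -3.34, SE 0.20, adjusted p = 3.7e-12), and 0.262% of genes tested had a lower value. At this low level the fold depends on the scale, and the log2 value was -1.37 on log2(FPKM + 1) and -1.75 on log2(TPM + 1), still past the threshold on both. HLA-DOB, the beta chain (chromosome 6, 32812763 to 32820466, minus strand), had 0.97, 1.86 and 1.86 TPM in shCRIP1 and 2.2, 1.51 and 1.75 TPM in shScramble, from 10 to 20 counts against 16 to 23. The groups overlapped, and the log2 fold change of -0.35 (SE 0.30, adjusted p = 0.289) moved between -0.51 and -0.09 as single libraries were left out, so a difference was not detectable at this depth.

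In order of level, the members ran CD74, HLA-DRA, HLA-DRB1 and HLA-DPA1 in every library. Below them the order was HLA-DMB, HLA-DMA, HLA-DPB1 and CIITA in all 3 shCRIP1 libraries, with HLA-DMA at 91.0 ± 5.9 TPM and HLA-DMB at 116 ± 3.57 TPM. In shScramble it was HLA-DMA (192 ± 7.56 TPM), HLA-DPB1 (134 ± 2.02 TPM) and then CIITA and HLA-DMB, whose values of 73.4 to 75.1 and 66.8 to 76.2 TPM overlapped. HLA-DOB lay above HLA-DOA in all 3 shCRIP1 libraries and below it in all 3 shScramble libraries.

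The balance between partner chains was compared within each library, which needs no scaling between libraries. For HLA-DMA over HLA-DMB the ratio of TPM + 0.1 was 0.749, 0.874 and 0.737 in shCRIP1 and 2.4, 2.65 and 2.92 in shScramble. The difference of the log2 ratios was -1.76, a 3.38-fold shift. HLA-DOA over HLA-DOB shifted by -2.69 on the log2 scale, resting on few counts, and by -1.6 with 1 TPM added in place of 0.1. HLA-DRA over HLA-DRB1 was 1.71, 1.69 and 1.68 in shCRIP1 and 1.2, 1.18 and 1.19 in shScramble, a shift of 0.51 that is subject to the split of reads among DRB genes. HLA-DPA1 over HLA-DPB1 was 3.89, 3.43 and 3.46 in shCRIP1 and 3.23, 3.13 and 3.24 in shScramble, a shift of 0.17, or 0.11 without shCRIP1 replicate 1. CD74 over HLA-DRA was 2.5 to 2.62 in shCRIP1 and 2.89 to 3.17 in shScramble, a shift of -0.24. In each of the 5 ratios the groups did not overlap, and each gave p = 0.1 in an exact two-sided permutation test, the smallest that 3 against 3 allows (adjusted p = 0.1 over the 5), so none could pass 0.05.

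**Figure D3:**
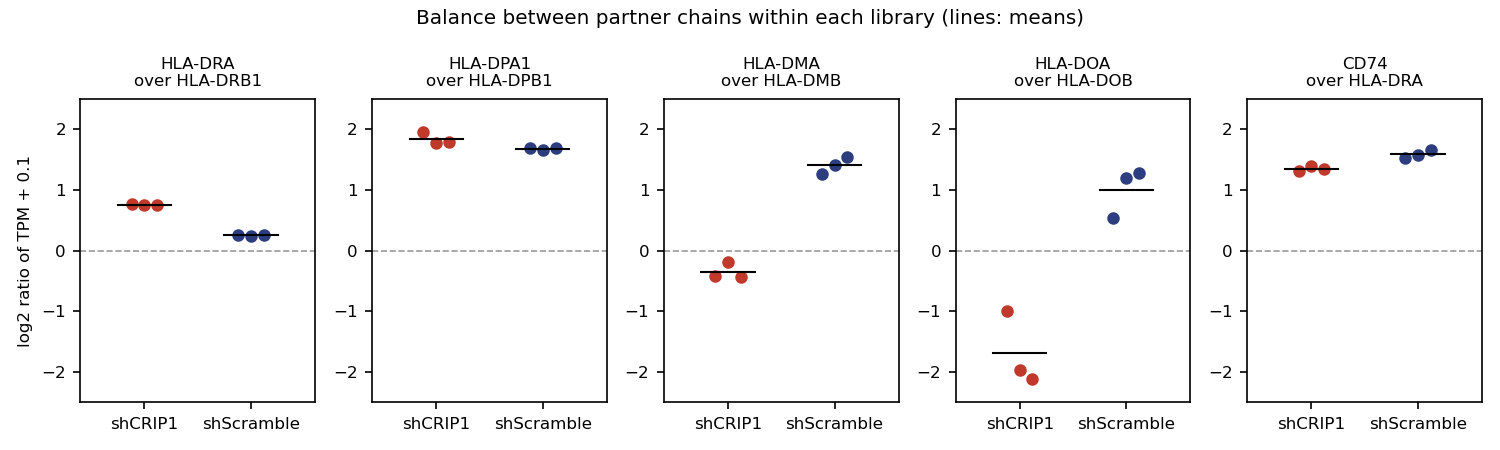
Log2 ratio of TPM + 0.1 between partner chains, 1 point per library, with group means as lines, shCRIP1 (red, left) and shScramble (blue, right). The dashed line marks equal levels. HLA-DMA over HLA-DMB and HLA-DOA over HLA-DOB lie above 0 in every shScramble library and below 0 in every shCRIP1 library.

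The factors that hold CIITA at the promoter module moved in both directions. Of 8 genes tested, 5 rose and 2 fell, beside 39.4% and 38.1% of all genes tested. The median was 0.38. With the GC trend removed 4 rose and 3 fell, with a median of 0.18. All NF-Y subunits, which bind the Y box, rose. NFYB was at 49.8 ± 2.2 TPM in shCRIP1 and 23.1 ± 0.94 TPM in shScramble (log2 fold change 0.95, SE 0.05), NFYC rose by 0.64 (SE 0.05) and NFYA by 0.47 (SE 0.05). RFXANK, the ankyrin-repeat subunit of the RFX complex that binds the X box, fell to 72.9 ± 3.65 TPM in shCRIP1 against 151 ± 4.12 TPM in shScramble (-1.14, SE 0.05). The other RFX subunits differed in direction, with RFX5 lower at 299 ± 10.4 TPM in shCRIP1 and 336 ± 10.6 TPM in shScramble (-0.30, SE 0.04) and RFXAP higher at 9.0 ± 1.01 and 5.89 ± 0.479 TPM (0.47, SE 0.11). Among coactivators and chromatin partners of CIITA, 2 rose and 6 fell of 10 (median -0.23), or 3 and 4 on log2(TPM + 1). SMARCA4, the ATPase of the SWI/SNF remodelling complex, fell (-0.69, SE 0.05), as did the acetyltransferase KAT2B (-0.46, SE 0.06) and the deacetylase HDAC1 (-0.28, SE 0.04), while the histone methyltransferase EZH2 rose (0.30, SE 0.04).

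Known regulators of CIITA transcription were split, with 5 higher and 6 lower of 12 tested, beside 39.4% and 38.1% of all genes tested. Their median was -0.30, and on log2(FPKM + 1) 3 were higher and 6 lower of 10. PRDM1, the plasma cell repressor BLIMP-1 that silences CIITA, was at 38.7 ± 0.77 TPM in shCRIP1 and 66.8 ± 0.544 TPM in shScramble, a decrease (log2 fold change -0.95, SE 0.04) in the same direction as CIITA. TCF3, which encodes the E proteins E12 and E47, fell to 75.2 ± 5.2 TPM in shCRIP1 against 230 ± 4.14 TPM in shScramble (-1.78, SE 0.05). SPI1, encoding the myeloid and B cell factor PU.1, had 14, 18 and 20 counts in shCRIP1 and 0 in each shScramble library, at least 16.8-fold higher if 3 counts, the floor set for the whole shScramble group, are put in place of 0. PAX5, the B cell factor, had 0 counts in shCRIP1 and 1 in shScramble. IRF1 rose to 101 ± 2.13 TPM in shCRIP1 against 59.7 ± 4.6 TPM in shScramble (0.63, SE 0.05).

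IRF1 also carries the interferon gamma signal, the usual inducer of CIITA outside B cells. Of 9 genes of that pathway tested, 3 rose and 4 fell (median 0.10), beside 39.4% and 38.1% of all genes tested. On log2(TPM + 1) 5 rose and 4 fell. IFNG itself had 0 counts in every library. The receptor chain IFNGR1 rose (55.3 ± 3.84 TPM in shCRIP1, 24.8 ± 0.555 TPM in shScramble). The feedback inhibitors SOCS1 (-2.01, SE 0.11) and SOCS3 (-1.87, SE 0.05) fell.

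Genes that prepare and clear the class II groove were also split, with 6 higher and 4 lower of 10 (median 0.36). The shares over all genes tested were 39.4% higher and 38.1% lower. SPPL2A, the intramembrane protease that cleaves the last CD74 stub, rose to 116 ± 6.58 TPM in shCRIP1 against 52.6 ± 3.36 TPM in shScramble (log2 fold change 1.13, SE 0.04). CTSZ, a lysosomal carboxypeptidase, rose to 28.5 ± 2.46 against 3.0 ± 0.189 TPM (3.11, SE 0.12). CTSH, an aminopeptidase of the cathepsin family, fell (-1.65, SE 0.07), and so did IFI30, the lysosomal thiol reductase GILT (171 ± 3.67 TPM in shCRIP1, 269 ± 3.91 TPM in shScramble).

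Partners of CD74 and genes of class II surface turnover gave 4 higher and 4 lower of 9 (median -0.10), beside 39.4% and 38.1% of all genes tested. After removal of the GC trend 3 were higher and 5 lower. Leaving out 1 library, either shCRIP1 replicate 2 or shScramble replicate 3, left 2 genes higher. MIF, the cytokine that binds CD74, fell to 1166 ± 33.5 TPM in shCRIP1 against 1777 ± 72.8 TPM in shScramble (-0.75, SE 0.04), and CXCR4, a coreceptor for MIF, rose to 344 ± 11.3 against 146 ± 5.88 TPM (1.10, SE 0.04). CD44, the signalling partner of CD74, had 110 counts in shCRIP1 and 28 in shScramble over 3 libraries each (1.83, SE 0.28). The tetraspanin CD82, found in class II compartments, fell (-2.20, SE 0.07), as did the clathrin adaptor subunit AP2M1 (-0.84, SE 0.04).

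**Figure D4:**
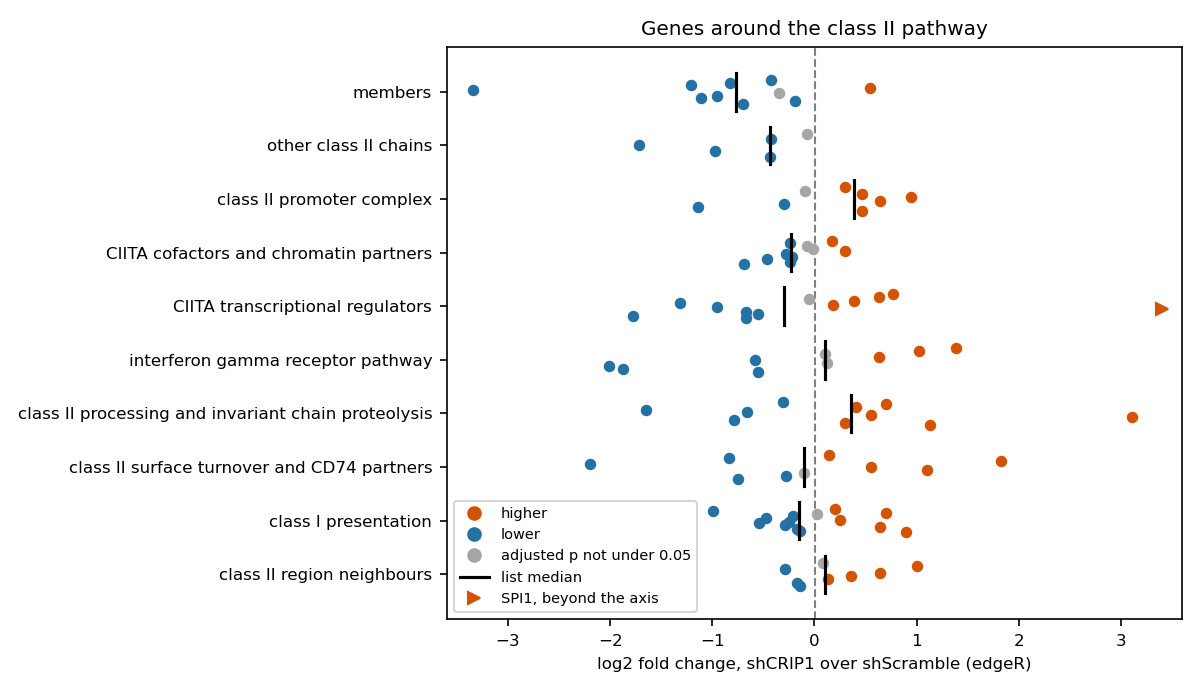
Log2 fold change of each tested gene in the members and the lists around them, coloured by call, with the list median as a black line and the median of all genes tested dashed. The members' median is -0.76 and that of the promoter complex 0.38. SPI1 lies beyond the axis.

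Markers of mature B, dendritic, myeloid, T and NK cells were mostly low in both groups, with CR2 and SPIB the highest of those listed. Of the mature B cell genes, MS4A1 (CD20) had 0 counts in shCRIP1 and 1 in shScramble. The 8 B cell genes summed to 37.9 to 39.6 TPM in shCRIP1 and 31.1 to 32.3 TPM in shScramble, mostly CR2 (20.5 ± 0.685 against 6.41 ± 0.656 TPM) and SPIB (16.0 ± 0.37 against 23.1 ± 0.485 TPM). Of 3 tested, CR2 rose, SPIB fell and BLNK did not pass (1.06 ± 0.354 TPM in shCRIP1, 1.1 ± 0.176 TPM in shScramble). The 10 dendritic and myeloid genes in the table summed to 8.66 to 10.6 TPM in shCRIP1 and 3.95 to 4.32 TPM in shScramble, with CLEC9A at 0 counts in every library. There LYZ rose (3.20, SE 0.28), CD33 had 69 counts in shCRIP1 and 2 in shScramble, ITGAX fell (-2.53, SE 0.31) and CD68 did not pass (2.55 TPM in both groups). The 7 T and NK cell genes in the table summed to 1.7 to 2.32 TPM in shCRIP1 and 0.31 to 0.45 TPM in shScramble, with CD4 and NKG7 at 0 counts in every library. None passed the filter on low counts. Most of the shCRIP1 sum was CD3D, a chain of the T cell receptor complex, with 6, 8 and 5 counts in shCRIP1 and 0 in each shScramble library. With no filter on low counts CD3D passed as higher, and KLRD1, an NK cell receptor chain, passed the filter and the test as higher without shCRIP1 replicate 1 or without shScramble replicate 1. The part of these markers in the class II result was not tested. The 8 class II chains among the members summed to 4385 to 4540 TPM in shCRIP1 and 5485 to 5665 TPM in shScramble. Sums over unlike sets of genes do not measure shares of cells.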

How the data were processed

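Per the labels, total RNA of KMS11 cells was extracted with TRIzol and sequenced from SMARTer mRNA libraries. The deposited table gives estimated counts, FPKM and TPM per gene and library, per the file headers. Per the submitters' processing notes, the build was GRCh38.p13 and the tools were RSEM 1.2.8, Bowtie2 2.2.5 and HISAT2 2.1.0, whose roles the notes leave unstated. Neither the annotation nor a strand setting is given in the sources used here. The authors' FPKM and TPM were taken as deposited, and the expected (estimated) counts deposited by the authors were rounded to whole numbers.

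Counts were tested with edgeR 4.0.16 (R 4.3.3): filterByExpr with a minimum count of 10, TMM scaling, group alone in a quasi-likelihood fit over all 12612 genes passing the filter, Benjamini-Hochberg adjustment and a threshold of 0.05. Changes are shCRIP1 minus shScramble, and the SE is the log2 fold change over the square root of F. Ratios of chains used TPM + 0.1 and exact permutation tests. The design treats samples as unpaired. Alternatives used DESeq2 1.42.0 and limma 3.58.1, among others. A count within 0.001 of an integer was called whole, and 18.7% of genes had a count that was not. Libraries of a group differed by more than sampling noise (mean chi-square per gene 1.62 to 4.15). Positions and GC content are from GENCODE 29, with GC values for 99.5% of tested genes, and promoter sequences from RefSeq.

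The members and lists were chosen with earlier results of these data known. Beyond the 10 members, each list names the 4 tested genes of smallest adjusted p and the largest called fold, and CIITA and HLA-DRA each name the 3 genes of most like profile with a mean of at least 10 TPM. Some genes that the rule or a list holds are not reported here. Genes named outside that rule, chosen after their values were seen, are HLA-DQA1, PAX5, IFNG, NLRC5, CD44, SDC1, SLAMF7, TNFRSF17, IRF4, CD38, MS4A1, CD3D, KLRD1, RFX5, RFXAP, CLEC9A, CD4, NKG7, DEXI, BRD2, HLA-B, HLA-C, B2M, BTNL2, TSBP1 and NOTCH4.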

Additional observations from a re-analysis of the deposited data

How the results depend on the processing

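The counts of members lower and higher stayed at 8 and 1 in 15 of the 17 alternatives to the edgeR fit, the replicate block among them. On log2(TPM + 1) and log2(TPM + 0.1) they were 7 and 1, because HLA-DRA (-0.05 on both) did not pass. Leaving out single libraries kept both counts, with CIITA between -0.86 and -0.80, HLA-DRA between -0.21 and -0.17, and HLA-DMB between 0.48 and 0.58. Same-numbered libraries of the groups did not deviate together (correlations of 0.0455, -0.00877 and -0.0133 over genes), so the numbers were not treated as pairs. With the replicate block, 9816 genes passed rather than 9783. HLA-DOA was at -1.37 on log2(FPKM + 1), where adding 1 shrinks low values, and HLA-DOB could not be fitted with at least 50 counts in 3 libraries. The sign of HLA-DQA1 turned on log2(FPKM + 1) (0.02), log2(TPM + 1) and log2(TPM + 0.1) (0.07 on both), and it passed as a decrease without shScramble replicate 2 (-0.09, adjusted p = 0.048). In the lists, 3 regulators of CIITA rather than 5 were higher with at least 50 counts in 3 libraries, a filter that left 0 myeloid markers called in either direction. Without a filter, 2 B cell markers rather than 1 were lower. CD68 lay between -0.29 and 0.04 as single libraries were left out, turning sign without shCRIP1 replicate 2. Of all called genes, 50.8% were higher, against 61.7% on log2(TPM + 1) and 43.0% with the GC trend removed. The 5 chain ratios kept their direction under each alternative, with the left-out ranges 0.50 to 0.52 for HLA-DRA over HLA-DRB1, 0.11 to 0.20 for HLA-DPA1 over HLA-DPB1, -1.84 to -1.69 for HLA-DMA over HLA-DMB, -3.05 to -2.48 for HLA-DOA over HLA-DOB and -0.27 to -0.20 for CD74 over HLA-DRA.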

Other observations

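The class I pathway, which shows cytosolic peptides to CD8+ T cells, did not move in 1 direction. Of 14 genes tested, 5 rose and 8 fell, beside 39.4% and 38.1% of all genes tested. The median log2 fold change was -0.15, and on log2(TPM + 1) 6 rose and 6 fell. NLRC5, the class I counterpart of CIITA, fell to 6.52 ± 0.342 TPM in shCRIP1 against 8.53 ± 0.21 TPM in shScramble (-0.54, SE 0.06). Of the heavy chains, HLA-C fell (-0.47, SE 0.04) and HLA-B fell (-0.21, SE 0.04, but -0.07 and not past the threshold on log2(TPM + 1)). None of the counts of HLA-B or HLA-C was whole, so reads are shared between them and near copies. B2M, their shared light chain, was at 5941 ± 140 TPM in shCRIP1 and 4694 ± 203 TPM in shScramble (0.20, SE 0.04, but 0.02 and not past the threshold with the GC trend removed). The peptide editor TAPBP rose to 207 ± 4.85 TPM in shCRIP1 against 101 ± 0.837 TPM in shScramble, and the aminopeptidase ERAP1 to 87.8 ± 4.37 against 49.3 ± 2.59 TPM, whereas the chaperone CALR fell to 707 ± 6.81 against 1283 ± 8.7 TPM.

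Genes that lie beside the class II chains on chromosome 6 but do not encode them gave 4 higher and 3 lower of 8 tested. The shares over all genes tested were 39.4% and 38.1%. The median of these neighbours was 0.10, and on log2(TPM + 1) 5 were higher and 2 lower. PSMB9, an immunoproteasome subunit, rose to 195 ± 5.27 TPM in shCRIP1 against 114 ± 6.43 TPM in shScramble (0.64, SE 0.05), while its neighbour PSMB8 was at 113 ± 5.03 and 124 ± 2.78 TPM (-0.29, SE 0.05). RING1, a Polycomb protein, rose (0.36, SE 0.06), as did COL11A2, a collagen chain near 1 TPM (1.00, SE 0.16). BTNL2, TSBP1 and NOTCH4 did not pass the filter on low counts.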
